A study of Mus musculus with 2 samples.

Results

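Checkpoint ligands and inhibitory T cell receptors were followed as 10 genes of the 22180 genes measured on the arrays. The list holds 4 ligands (Cd274, Pdcd1lg2, Cd200 and Lgals9) and 6 receptors (Pdcd1, Cd200r1, Btla, Tigit, Lag3 and Havcr2). Each gene was represented by 1 probe set that carries its symbol alone, and none had a second probe set. The series held 2 mouse arrays of splenocytes, each from animals with the Fx-/- genotype. Fx (current symbol Gfus) encodes an enzyme on the route from mannose to GDP-fucose, and animals that lack it can fucosylate their glycans only with fucose from outside. The on-fucose array came from fucose-treated mice and the off-fucose array from mice with no fucose treatment, with Fx absent in both. The labels used here give no strain, age, treatment time or number of animals, and no wild-type array was used. Both arrays are labelled cDC1, conventional type 1 dendritic cells, which per the design text were obtained by removing cells with B220 and CD11b and then selecting CD11c on beads.

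Inhibitory receptors on T cells restrain activation when they bind ligands on dendritic cells and other antigen-presenting cells. PD-L1 and PD-L2 bind PD-1, CD200 binds CD200R, and several receptors of this kind carry tyrosine motifs in their tails that recruit phosphatases. Mature dendritic cells are known to carry PD-L1, PD-L2 and CD200 together, and TIGIT competes with the activating receptor CD226 for shared nectin-family ligands. Most of these proteins are glycoproteins of the cell surface, but the arrays measured RNA and not the proteins or their glycans.

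With 1 array per group no difference has a replicate check, and no p-value is given. Differences are off-fucose minus on-fucose in log2 intensity. Genes passed an expression filter where the mean of both arrays reached the median of all genes (2.88), which left 11090 genes. Here 7 of the 10 genes passed, and Cd200r1, Lag3 and Havcr2 lay below. As a yardstick, each difference is set beside a robust SD, taken over the differences of the 1109 genes in the same intensity bin. This SD holds technical and biological variation together and is no replicate error.

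Cd274, Cd200 and Btla were lower off fucose by between 1.67-fold and 1.78-fold, and Tigit was 1.94-fold higher. Values at least 1.5-fold lower thus belonged to 3 of the 7 genes past the filter, where 4.27% of all genes past it were as much lower. In the other direction 1 of the 7 was at least 1.5-fold higher, against a background of 5.77%. Without a filter 3 of the 10 were lower and 1 higher by that much, against 2.28% and 3.21% of all 22180 genes. None of the 10 reached 2-fold, where 2.37% of genes past the filter were higher and 0.514% lower by as much. The other 6 genes lay within 1.5-fold. The median difference over all 10 was 0.05, beside -0.00081 over all 22180 genes, with 5 positive and 5 negative values. Over the 7 genes past the filter it was -0.23, opposite in sign, beside -0.048 over all genes past the filter, of which 56.5% were lower off fucose.

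**Figure D1:**
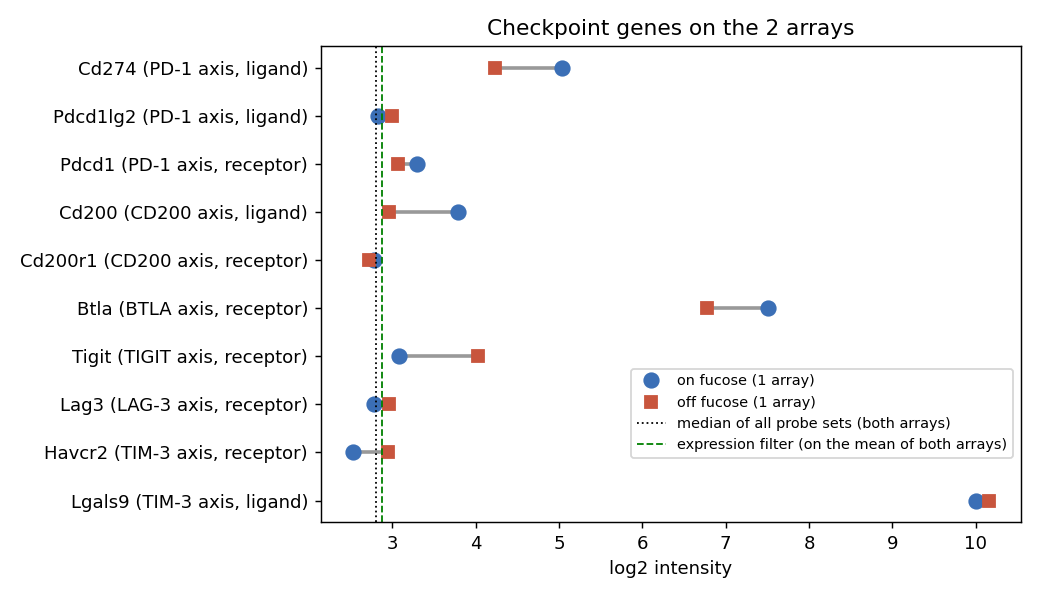
Log2 intensity (horizontal axis) of the 10 checkpoint genes on the on-fucose array (circles) and the off-fucose array (squares), 1 array per group and no error bars. Cd274, Cd200 and Btla lie lower off fucose and Tigit higher, while Pdcd1lg2, Cd200r1, Lag3 and Havcr2 lie near the array median (dotted line) on both arrays.

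T cell RNA was prominent on each array. The median of the 13 measured T cell genes was 9.79 in log2 with fucose and 9.29 without, and that of the 11 measured cDC1 genes was 4.58 and 5.84. Probe sets respond differently, so these medians give no share of cells. Among cDC1 genes the receptor gene Xcr1 had 2.90 and 3.43 and Naaa had 5.97 and 8.36, and Itgax, which encodes the selected CD11c, had 3.83 and 3.86. Of the 11 cDC1 genes 7 were higher off fucose, beside 42.2% of all genes past the filter. The 4 lower ones were Ly75 (6.80 and 5.86), Itgae, Id2 and Cd8a, of which Cd8a is also on the T cell list. In such mixed cells, fewer cells of a type and less RNA per cell cannot be told apart. The arrays also differed in sex-linked genes, with Xist at 8.26 on fucose and 2.82 off fucose and the Y-linked Uty at 2.14 and 5.26. Sex-linked genes and fucose treatment thus differed between the same arrays, so differences that go with sex cannot be told apart from those with fucose. All 10 checkpoint genes lie on autosomes in the RefSeq table, but autosomal genes can also differ with sex. The part of sex in their values was not tested.

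Of the PD-1 ligand genes, Cd274 was lower off fucose, and Pdcd1lg2 had signals too near the array median to give a direction. Cd274 encodes PD-L1, a ligand that many cells raise in response to interferon-gamma. Its intensity was 32.8 on fucose and 18.7 off fucose, or 5.04 and 4.23 in log2. The difference of -0.81 compares with a robust SD of 0.34 among genes of like intensity, of which 2.07% were as low or lower. Pdcd1lg2 encodes PD-L2, a ligand largely limited to dendritic cells and macrophages. It had 7.11 and 7.97, a log2 difference of 0.17 against a robust SD of 0.24, with both values near the array median of 6.99 and 7.04. Pdcd1 itself, the gene of the receptor PD-1, had an intensity of 9.87 on fucose and 8.41 off fucose. Its log2 difference of -0.23 was smaller than the robust SD of 0.29, and it became 0.012 when differences were centred on the T cell list. Rgmb, which encodes a further binding partner of PD-L2, had -0.59, and Cd80, whose protein can bind PD-L1, had 0.05.

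Both PD-1 ligand genes are direct neighbours on chromosome 19, with no protein-coding gene between them in the RefSeq table. Around them, 5 protein-coding genes past the filter (Insl6, Rln1, Plgrkt, Ric1 and Ermp1) had differences from -0.63 to -0.26. The 250 bases before the start of each ligand gene are shown because the pair share a locus and Cd274 passed the fold limit. The sequences are from RefSeq (build GRCm38.p6), 5′ to 3′ on the gene's strand, with matches in capitals.
Cd274, chr19:29367188-29367437, plus strand: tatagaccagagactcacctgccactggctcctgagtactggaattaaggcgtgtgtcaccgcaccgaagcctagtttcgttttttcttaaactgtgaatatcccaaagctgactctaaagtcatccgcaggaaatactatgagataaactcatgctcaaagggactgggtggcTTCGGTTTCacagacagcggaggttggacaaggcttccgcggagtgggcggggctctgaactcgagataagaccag
Pdcd1lg2, chr19:29410669-29410918, plus strand: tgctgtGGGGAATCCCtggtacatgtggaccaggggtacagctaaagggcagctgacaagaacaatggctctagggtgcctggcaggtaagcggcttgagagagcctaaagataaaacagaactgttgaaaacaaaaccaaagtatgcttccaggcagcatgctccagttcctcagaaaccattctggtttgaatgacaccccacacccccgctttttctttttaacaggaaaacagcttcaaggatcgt
Capitals mark matches on either strand to an interferon regulatory factor core (GAAANNGAA), a gamma-activated site (TTCNNNGAA), an AP-1 site (TGANTCA), an RBPJ site (TGGGAA) or the NF-kappaB consensus, and no matches of different motifs overlapped. Cd274 held 1 interferon regulatory factor core, from 76 to 68 bases before the start, as did 7.16% of 27025 promoters of the same length. Pdcd1lg2 held 1 NF-kappaB match, from 244 to 235 bases before the start, and 3.75% of promoters held that motif. These are letter matches only and were not measured as binding.

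No regulator of PD-L1 in the list was as much lower as Cd274. The list on the interferon-gamma axis and PD-L1 control had 15 measured genes, all past the filter. Of these, 2 were at least 1.5-fold higher (Irf8 and Ifng) and none was as much lower. Over all genes past the filter 5.77% were as much higher and 4.27% as much lower. The list median was -0.10, beside -0.048 over all genes past the filter. Ifng, the gene of interferon-gamma, went from 3.01 on fucose to 3.75 off fucose, and Ifngr1, a chain of its receptor, from 8.28 to 8.78. The on-fucose value of Ifng lay near the array median of 2.81. With 8 added to each intensity Ifng had 0.42, short of 1.5-fold. Irf8, a transcription factor of dendritic and other myeloid cells, had the largest difference, from 4.18 to 6.68, while its second probe set had 0.21. Irf2, a repressor of interferon-induced genes, had -0.56, and Irf1, which drives PD-L1 transcription, had -0.34. Cmtm6, whose protein keeps PD-L1 on the cell surface, had -0.016, and its sign turned when differences were centred on T cell genes.

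On the CD200 axis, the ligand gene was lower off fucose and the receptor gene had nearly equal values. Cd200 encodes a membrane glycoprotein of lymphocytes, mature dendritic cells, endothelium and neurons that restrains myeloid cells. Its intensity was 13.8 on fucose and 7.76 off fucose, which is 3.79 and 2.96 in log2. Its difference of -0.84 was 1.78-fold, beside a robust SD of 0.34, and 0.631% of genes of like intensity were as low or lower. The off-fucose value lay 0.14 above the array median in log2, so this fold may be understated. With 8 added to each intensity the difference was -0.47, short of 1.5-fold. Cd200r1, the gene of the inhibitory CD200 receptor, had 6.85 and 6.60, a log2 difference of -0.053. Both values lay below the array median, and the sign turned to 0.19 with centring on T cell genes. Its paralog Cd200r3, an activating family member of basophils and mast cells, had 0.41, while Cd200r2 and Cd200r4 lay below the filter at 0.11 and -0.25. The list of basophil and mast cell markers, which holds Cd200r3, had 10 of 10 genes higher off fucose, beside 42.2% of all genes past the filter. Their summed intensity was 195 with and 1274 without fucose.

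Btla was lower off fucose at signals well above the array medians. It encodes an inhibitory receptor of B cells, T cells and dendritic cells that binds HVEM, the product of Tnfrsf14. Its intensity was 183 on fucose and 109 off fucose, or 7.51 and 6.77 in log2. Its difference of -0.74 was 1.67-fold, beside a robust SD of 0.23, and 1.17% of genes of like intensity were as low or lower. Tnfrsf14 had -0.40, from 4.85 to 4.45. Cd160, which encodes another HVEM-binding receptor, had -0.15, which turned to 0.093 with centring on T cell genes.

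Lymphocyte markers were also lower off fucose beside Btla, by less, where 56.5% of all genes past the filter were lower. The 13 T cell genes were all lower, from -0.50 in Cd5 to -0.067 in Cd28, with a median of -0.24 and a summed intensity of 15101 with and 12540 without fucose. Of the 9 measured B cell genes 5 passed the filter, 4 of them lower, with a median of -0.21 and a summed intensity of 91.7 and 79.7 on the 2 arrays. The B cell lineage gene Pax5 was near the array median at 2.91 and 3.07, and Cd79a had 3.21 and 2.53. After subtraction of the T cell median, Btla had -0.50 and Cd274 -0.56, which no longer reach 1.5-fold, and Cd200 had -0.59, which does. The part of these cell types in the values of Btla, Cd274 and Cd200 was not tested.

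Btla and Cd200 are direct neighbours on chromosome 16, with no protein-coding gene between them. Next to Btla lies Atg3, a gene of autophagy, with 0.0030, and then the nucleotide-sugar transporter family gene Slc35a5 with -1.11. Cd200r1 and Tigit lie on the same chromosome, with 6 protein-coding genes between Cd200r1 and Btla and 14 between Tigit and Cd200r1. The 250 bases before the start of the 3 chromosome 16 genes that passed the fold limit are shown, with capitals as above.
Cd200, chr16:45409054-45409303, minus strand: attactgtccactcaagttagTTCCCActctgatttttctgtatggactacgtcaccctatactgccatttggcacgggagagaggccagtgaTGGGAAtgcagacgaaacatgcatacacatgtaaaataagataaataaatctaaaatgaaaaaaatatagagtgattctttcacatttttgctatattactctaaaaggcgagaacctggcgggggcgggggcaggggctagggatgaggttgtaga
Btla, chr16:45224087-45224336, plus strand: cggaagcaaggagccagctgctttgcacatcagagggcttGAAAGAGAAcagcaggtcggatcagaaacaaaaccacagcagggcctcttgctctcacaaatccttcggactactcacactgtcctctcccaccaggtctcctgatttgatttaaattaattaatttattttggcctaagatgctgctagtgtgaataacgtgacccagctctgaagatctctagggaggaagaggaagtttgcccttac
Tigit, chr16:43664185-43664434, minus strand: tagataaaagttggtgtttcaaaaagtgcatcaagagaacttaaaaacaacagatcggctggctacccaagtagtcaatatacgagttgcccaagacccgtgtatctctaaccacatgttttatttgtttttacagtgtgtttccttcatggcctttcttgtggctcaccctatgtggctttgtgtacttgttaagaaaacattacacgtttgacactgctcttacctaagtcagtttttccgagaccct
Cd200 held 2 RBPJ matches, from 229 to 224 and from 157 to 152 bases before the start, where 21.5% of promoters held at least 1. RBPJ is the DNA-binding partner of Notch, whose receptors carry O-fucose. Btla held 1 interferon regulatory factor core, from 210 to 202 bases before the start, and Tigit held none of the 5 motifs in this window. Of the 10 genes, 8 had an entry in the promoter table. Among the others, Lgals9 held an interferon regulatory factor core and Havcr2 an AP-1 site (6.87% of promoters). With a further A required at the end of the core, 3.04% of promoters and, of the 8 entries, Lgals9 alone held it. The shorter core was chosen after the longer one had been searched.

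**Figure D2:**
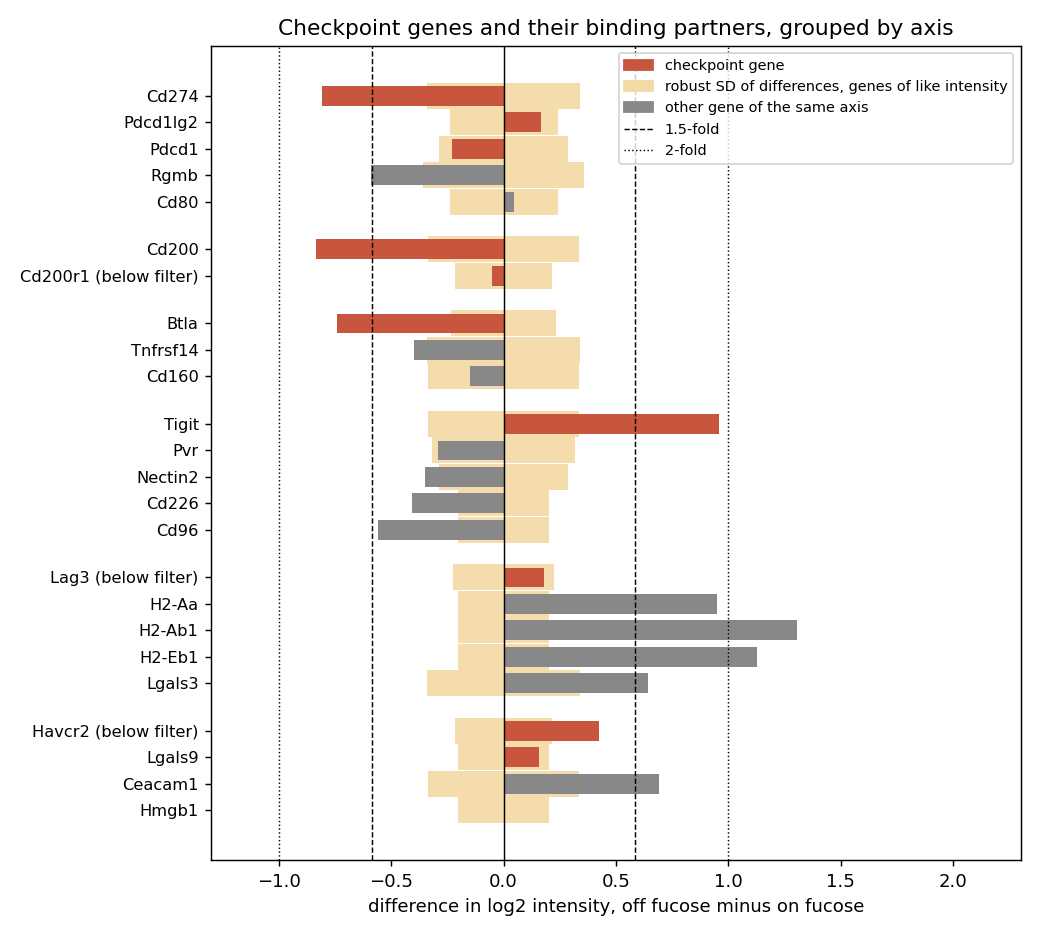
Difference in log2 intensity, off fucose minus on fucose, for the checkpoint genes (red bars) and for other genes of the same axis past the filter (grey bars), with dashed lines at 1.5-fold and dotted lines at 2-fold. The pale band behind each bar is the robust SD of differences at like intensity, not a replicate error. Tigit is higher while Cd226, Cd96, Pvr and Nectin2 are lower, and on the LAG-3 axis the MHC class II genes are higher.

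Tigit was the one checkpoint gene at least 1.5-fold higher off fucose, while the other genes of its axis had differences below 0 as deposited. It encodes an inhibitory receptor of regulatory, memory and activated T cells and of NK cells. Its intensity was 8.44 on fucose and 16.4 off fucose, or 3.08 and 4.03 in log2. The difference of 0.96 compares with a robust SD of 0.34, and 3.43% of genes of like intensity were as high or higher. The on-fucose value lay 0.27 above the array median, so the 1.94-fold may be an understatement. It was 0.57 with 8 added to each intensity, just short of 1.5-fold, and 1.20 with centring on T cell genes, which is past 2-fold.

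The competing receptor genes and the ligand genes of TIGIT had negative differences. Cd226, the activating receptor gene, went from 8.21 to 7.80 (-0.41), and Cd96, a related receptor gene of T and NK cells, went from 9.46 to 8.90 (-0.56). Tigit therefore stood 1.37 above Cd226 and 1.52 above Cd96 in difference, which amounts to a 2.58-fold and a 2.86-fold shift of the ratio of signals. These shifts rest on the low on-fucose signal of Tigit. They were smaller with 8 added to each intensity, where Tigit had 0.57, Cd226 -0.40 and Cd96 -0.55. Pvr, which encodes the ligand CD155, had -0.29, and Nectin2, which encodes CD112, had -0.35. Nectin3 lay below the filter with -0.045, which turned to 0.20 with centring on T cell genes. With centring on T cell genes the differences shrank to -0.16 for Cd226, -0.32 for Cd96, -0.051 for Pvr and -0.10 for Nectin2, and Pvr lay within its robust SD of 0.32 even without it.

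Markers of cells that carry TIGIT were set beside it, where 56.5% of all genes past the filter were lower. Among regulatory T cell genes 7 of the 9 past the filter were lower, with a median of -0.24 and summed intensities of 1002 with and 818 without fucose. The lineage factor Foxp3 had 6.65 and 6.60, and Ctla4, a further inhibitory receptor gene of these cells, had 4.65 and 4.94. Of the NK cell list 6 of 9 genes were lower, with a median of -0.25 and a summed intensity of 1576 and 1336. However, the activating receptor genes Klrk1 and Ncr1 were higher at 0.81 and 0.57, from low on-fucose signals of 2.69 and 3.03. With 8 added to each intensity Klrk1 had 0.42 and Ncr1 0.32. The list of activated and effector T cell genes had 8 of 12 lower and a median of -0.32, with sums of 4141 with and 3131 without fucose. Their part in the value of Tigit was not tested.

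**Figure D3:**
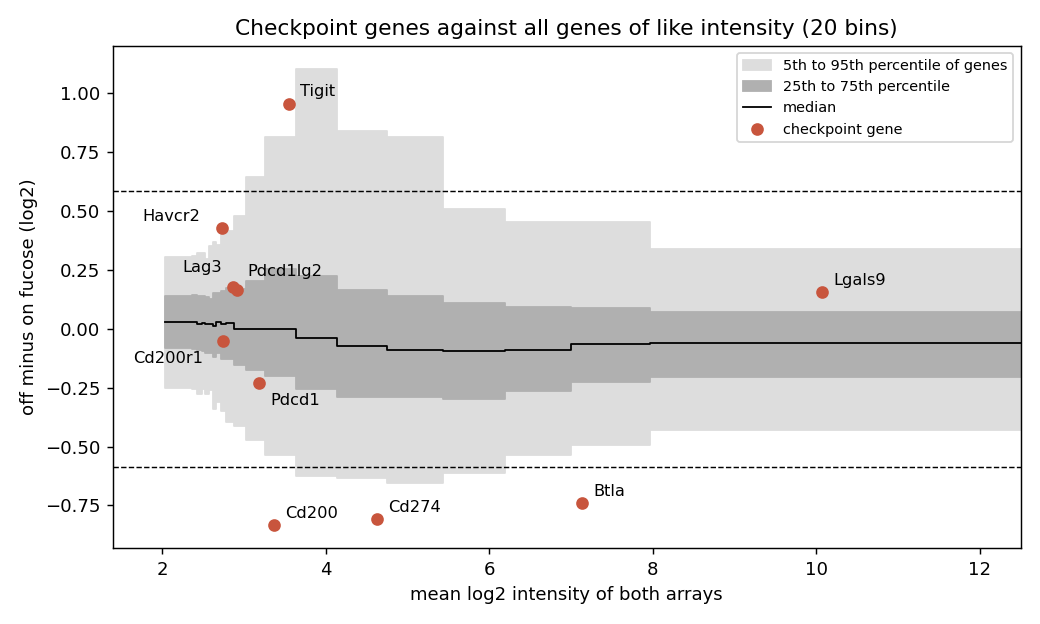
Difference in log2 intensity against the mean log2 intensity of both arrays for the 10 checkpoint genes (points), over the percentiles of all genes in 20 bins of intensity (grey steps, black line for the median) with dashed lines at 1.5-fold. Cd200, Cd274 and Btla lie below the 5th percentile of their bin, Tigit and Havcr2 above the 95th, and the other 5 genes lie between.

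Lag3 and Havcr2, receptor genes of activated and exhausted T cells, had low signals on both arrays. Lag3 encodes a CD4-related receptor for MHC class II. It had 6.86 on fucose and 7.76 off fucose, a log2 difference of 0.18 within the robust SD of 0.22. Its class II ligand genes were all higher, with H2-Aa at 0.95, H2-Ab1 at 1.31 and H2-Eb1 at 1.13, and Lgals3, which encodes another reported ligand, had 0.64. The neighbouring gene Cd4 had -0.37. Fgl1 and Clec4g, genes of further ligands, lay below the filter at 0.15 and -0.025.

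Havcr2 encodes TIM-3, a receptor of effector T cells that dendritic cells and mast cells also carry. Its intensity was 5.75 on fucose and 7.73 off fucose, from below to just above the array medians. The log2 difference of 0.43 compares with a robust SD of 0.22, and 4.51% of genes of like intensity were as high or higher. Because the gene missed the expression filter, its fold is not counted, and it reached 0.67 with centring on T cell genes. Ceacam1, which encodes an adhesion molecule that can bind TIM-3, went from 3.06 to 3.75 (0.69). Lgals9, the gene of galectin-9, had the high intensities of 1023 and 1139, a difference of 0.16 within the robust SD of 0.20. Hmgb1, a chromatin protein gene whose product also binds TIM-3, had 9.97 on both arrays. Timd4, a phosphatidylserine receptor gene of the same family as Havcr2, lay below the filter with 0.20.

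**Figure D4:**
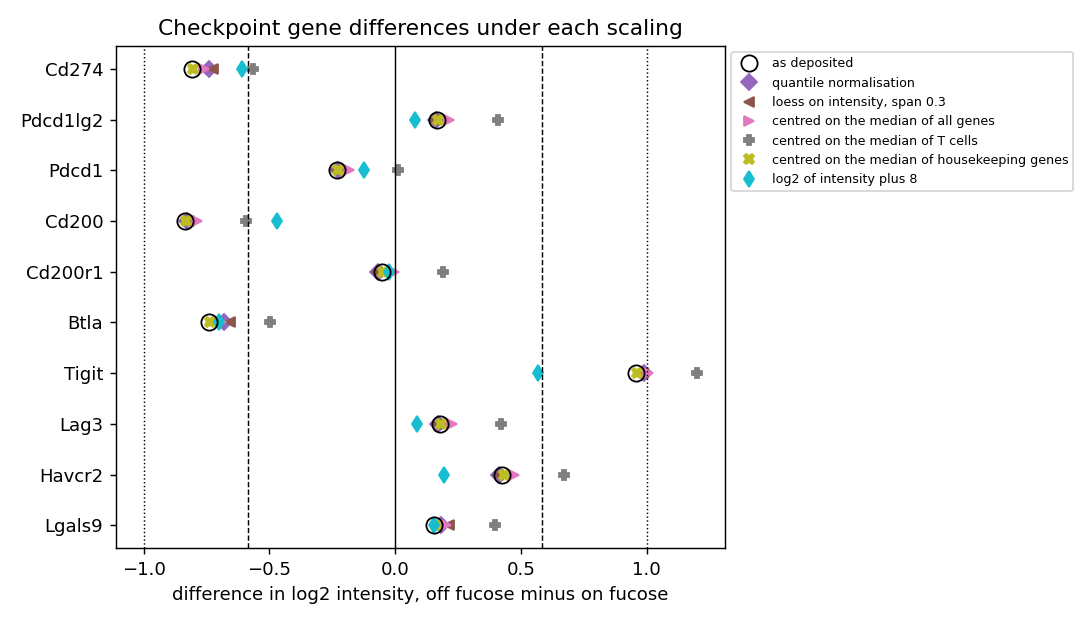
Difference of each checkpoint gene, off fucose minus on fucose in log2 intensity, as deposited (open circles) and under 6 other scalings (filled marks), with dashed lines at 1.5-fold and dotted lines at 2-fold. Cd274, Cd200 and Btla stay below 0 and Tigit above 0 under each scaling shown, and Pdcd1 and Cd200r1 cross 0 with centring on T cells.

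Ligands and partners had no common direction as a list. The list of ligands and partners had 19 of 20 genes measured and 14 past the filter, with a median of -0.075. Of the 14, 5 were at least 1.5-fold higher and 1 was as much lower (Rgmb). Over all genes past the filter 5.77% were as much higher and 4.27% as much lower. The list's largest differences were those of the 3 MHC class II genes and Ceacam1. With 8 added to each intensity Ceacam1 (0.40), Lgals3 (0.48) and Rgmb (-0.40) fell short of 1.5-fold. Other B7 ligands and inhibitory receptors had 18 of 20 measured genes past the filter and a median of 0.0019. Of these 18, 2 were at least 1.5-fold higher and none as much lower, beside the same shares of all genes. The higher ones were Sirpa (1.66), which encodes the CD47 receptor of myeloid cells, and Cd244a (1.06), which encodes the SLAM-family receptor 2B4. Klrg1, an inhibitory lectin receptor gene of effector T and NK cells, had -0.55, and Cd5, which dampens T cell receptor signals, had -0.50. Among paralogs, the galectin genes Lgals1 and Lgals3 had 0.71 and 0.64, unlike Lgals9 with 0.16, and 13 of 21 measured genes passed the filter with a median of -0.016.

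Genes that act below the inhibitory receptors were mostly lower off fucose, as T cell genes were, beside 56.5% of all genes past the filter. All 16 measured genes passed the filter, and 14 were lower. Of these, 1 was at least 1.5-fold lower, beside 4.27% of all genes past the filter. The median was -0.25, or -0.0026 when differences were centred on the T cell list. The adaptor gene Nck1 had -0.87, Sh2d1a, which encodes the SLAM adaptor SAP, had -0.56, the Ras regulator gene Rasa1 had -0.53 and the kinase gene Fyn had -0.45. The phosphatase genes Ptpn6 (SHP-1) and Ptpn11 (SHP-2), which bind the tails of PD-1 and BTLA, had -0.21 and -0.056, and both signs turned with that centring.

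Transcription factors of activated and exhausted T cells had 13 of 18 genes lower (56.5% of all genes past the filter were), with a median of -0.14. Of the 18, 2 were at least 1.5-fold lower and 1 was as much higher. Over all genes past the filter these shares were 4.27% and 5.77%. Nr4a1, an orphan receptor gene induced by T cell receptor signals, was higher (1.10), and its relative Nr4a3 had 0.57. Id3, an inhibitor of E proteins, had -0.80, and Tbx21, which encodes T-bet, had -0.66. Tox, a factor of exhausted T cells, had 6.33 on fucose and 6.31 off fucose.

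Genes that mature dendritic cells carry together with PD-L1 and CD200 were mostly lower off fucose as well. Of the 19 genes past the filter, out of 22 measured, 15 were lower, 4 at least 1.5-fold and 2 at least 2-fold, with none 1.5-fold higher and a median of -0.29. Over all genes past the filter 56.5% were lower, 4.27% at least 1.5-fold and 0.514% at least 2-fold, with a median of -0.048. The list was chosen with earlier results of these data known, so setting it beside all genes is no test. The whole list summed to an intensity of 3728 with and 2677 without fucose, of which Ccl5, a chemokine gene that effector T cells also express, made up 2274 and 1522. Without Ccl5 the sums were 1455 and 1155. Apol7c, an apolipoprotein L family gene of dendritic cells, had -2.82, and Fscn1, the fascin gene of mature dendritic cells, had -1.51. Fas, a death receptor gene, had -0.73 and Relb, an NF-kappaB subunit gene, -0.61, and both are also expressed by lymphocytes. Ccr7, which guides mature dendritic cells and naive T cells to lymph nodes, had -0.18, which turned to 0.066 with centring on T cell genes. The list median was then -0.048. The maturation marker Cd83 had 3.14 and 3.12, and Cd86 was higher at 0.30. Pdcd1lg2, which such cells also carry, had 0.17, within its robust SD.

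**Figure D5:**
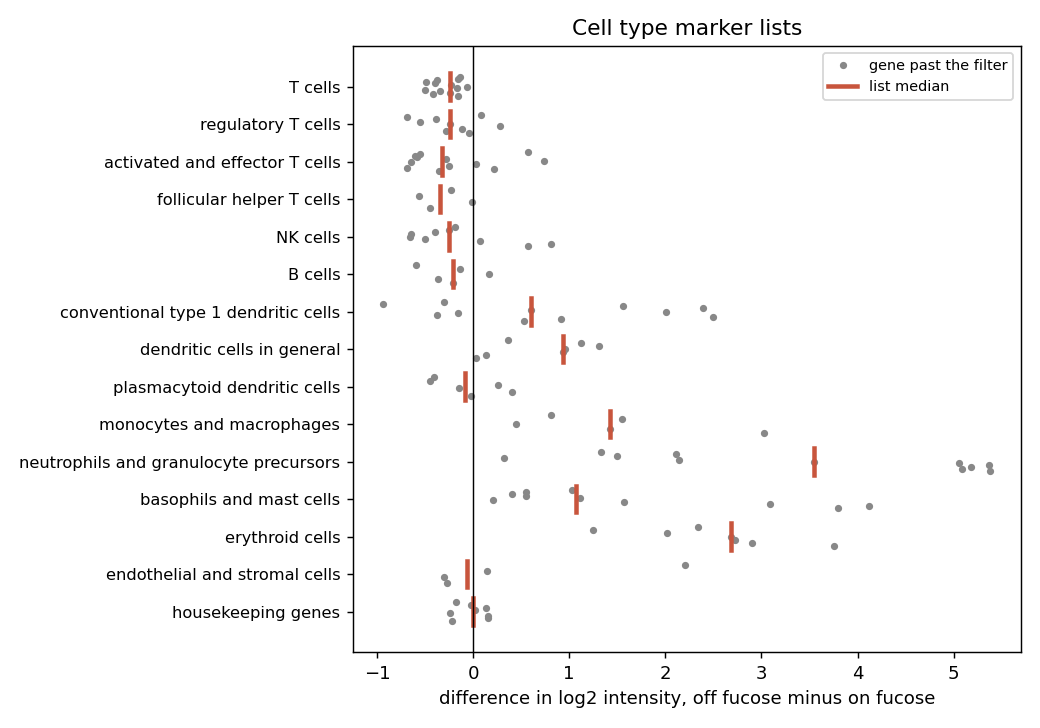
Difference in log2 intensity, off fucose minus on fucose, of the genes past the filter in each cell type marker list (grey points), with the list median (red bar). T cell genes all lie below 0, while the lists of monocytes, granulocyte precursors, basophils and erythroid cells have medians above 1.

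Markers of myeloid and erythroid cells were higher off fucose on the same arrays. The summed intensity of granulocyte precursor markers was 121 on fucose and 3007 off fucose, and that of erythroid markers 79.9 and 514. Monocyte and macrophage markers had 1477 and 2129, and most of both sums came from Ly6c2 alone (10.4 and 10.9 in log2). Of their 10 measured genes 5 passed the filter, and all 5 were higher, where 42.2% of all genes past the filter were higher. The general dendritic cell list had 7 of 7 genes higher, with Itgax (0.033) and Zbtb46 (0.14) the least. Its summed intensity was 1298 and 2956, most of it from the 3 MHC class II genes. The cDC1 list had 7 of 11 higher, with sums of 786 and 1099. Cd8a, also on the T cell list, was part of both cDC1 sums with 8.37 and 8.22 in log2. The part of these cells in the values of the checkpoint genes was not tested.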

How the data were processed

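The authors deposited 1 intensity per probe set and array (41345 probe sets), made with RMA per the submitters' processing notes; version, settings and genome build are not given in the sources used here. The deposited intensities ran from 2.74 to 9512 and were read as linear, so log2 was taken. Arrays were labelled from 9 ng of RNA, per the labels, and their number limits the precision. Genes came from probe sets with 1 platform symbol (23521), the one with the highest mean standing for a gene. The platform annotation can be old, and all 10 Entrez IDs matched the RefSeq table (GRCm38.p6), used for names, order and promoters. Robust SDs came from 20 intensity bins. The 10 genes and all lists were chosen with earlier results of these data known. All 10 were named, and of each pathway list the 4 with the largest differences above the expression limit. Other list and neighbouring genes were chosen after their values were seen. Settings tried were the mean of probe sets, no filter, a filter at the 67th percentile, quantile normalisation, loess (span 0.3), 3 centrings and log2 of the intensity plus 8. Counting was tested on simulated data. Python 3.11.15 and statsmodels 0.14.6 were used.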

Additional observations from a re-analysis of the deposited data

How the results depend on the processing

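No paired analysis was possible because a single array stands for each group, so none could be left out either. Changing the filter or the probe set rule cannot move a gene with 1 probe set. Cd274, Cd200 and Btla stayed lower and Tigit higher under the 6 other scalings, over ranges of -0.81 to -0.56, -0.84 to -0.47, -0.74 to -0.50 and 0.57 to 1.20. The count at least 1.5-fold higher (1) was 0 at the 67th percentile filter, which Tigit misses, and 0 with 8 added to the intensity, which damps low values. The count at least 1.5-fold lower (3) was 1 with centring on T cells and 2, Cd274 and Btla, under both of the former. The count at least 2-fold higher (0) was 1, Tigit, with centring on all genes or on T cells. The median over the 10 genes (0.05; -0.23 over the 7 past the filter) was 0.29 with T cell centring and -0.74 over the 3 genes left by the 67th percentile filter. With T cell centring the median over all filtered genes was 0.20, with 1317 genes at least 1.5-fold higher and 111 lower, in place of 640 and 473. Of 123 other values that a setting could move, for single genes and list medians, 106 moved by less than the robust SD. Centring on all genes or on housekeeping genes shifted each value by a constant of 0.048 or 0.0050, less than any of these SDs. For those settings the outcome was therefore fixed in advance. T cell centring likewise added a constant, 0.243, to each value, so the robust SD alone fixed which values moved by more. Most values that moved by more did so with T cell centring, among them every list median and Btla. Low signal over background limits Pdcd1lg2, Cd200r1, Lag3 and Havcr2. It also limits Cd200 and Pdcd1 off fucose and Tigit on fucose, which lay 0.14, 0.26 and 0.27 above the array median in log2.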
